A study of Mus musculus with 30 samples.

Results

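A set of 8 genes that respond to Wnt/beta-catenin signaling in many tissues was followed through the culture of mouse brain endothelial cells (ECs): Axin2, Nkd1, Notum, Apcdd1, Znrf3, Rnf43, Spock2 and Tnfrsf19. They were chosen by name, as 6 feedback inhibitors of the pathway and 2 other genes regulated by it, with earlier results of these data known, and they are 8 of the 21820 protein-coding genes measured. The study asked how brain ECs change when they are taken into culture and whether an activated beta-catenin pathway alters that change. RNA-seq was done on 2 libraries of acutely isolated ECs, 2 of GFP-negative brain cells, 6 of wild-type (WT) cultures and 4 of beta-catenin stabilized cultures, and ATAC-seq, which maps accessible chromatin, on 2, 6 and 2 libraries of acute ECs, WT cultures and stabilized cultures. Acute ECs were sorted as GFP-positive cells from adult Tie2-GFP mice, in which a Tie2 promoter drives GFP in ECs, and GFP-negative brain cells of adult Tie2-GFP mice served as the non-endothelial reference. Cultures were grown for 8 days after puromycin selection from pooled brains of young adult males, and their replicates are wells, a pair of wells from each experiment.

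WT cultures 1 and 2 came from C57BL/6J mice and an isolation called method A, and WT cultures 3 to 6 from Ctnnb1flex3/+;Tie2-GFP mice and method B. The assignment to methods is that of the study's methods section, and a figure legend of the study gives it differently, so that every comparison of methods below rests on the former. In RNA-seq, stabilized wells 1 and 2 came by method A and wells 3 and 4 by method B. In ATAC-seq, both stabilized wells came by method B. All stabilized cultures came from Ctnnb1flex3/+;Pdgfb-CreER;Tie2-GFP mice given 4-hydroxytamoxifen as pups. In these mice a Cre driven by Pdgfb removes exon 3 of Ctnnb1, which codes for the part of beta-catenin through which it is marked for destruction. The method B controls carried the flex3 allele without the Cre and also received 4-hydroxytamoxifen, whereas the method A controls carried none of these alleles, so that in method A stabilization cannot be told apart from the strain and the other alleles. Pdgfb-CreER was absent from all controls. In RNA-seq, WT cultures 3 and 4 were read with 150 cycles and all other cultures with 36, paired, and the acute libraries with 75 cycles, single. Every ATAC-seq library was read with 36 cycles, paired.

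In the canonical pathway a Wnt ligand bound by Frizzled and Lrp5 or Lrp6 stops the destruction of beta-catenin, which then enters the nucleus and activates genes together with TCF and LEF factors. Several of the activated genes code for inhibitors that act back on the pathway, which makes their transcripts a widely used readout of signaling. In the brain, Wnt ligands from neural and glial cells act on ECs, where the pathway is known to maintain the blood-brain barrier.

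Of the 8 genes, 4 lay near chromatin that was open in both acute EC libraries and in no WT culture, beside 8.38% of all genes and 20.6% of genes of at least 70 kb, a length that 4 of the 8 exceed. The sequences of 3 such windows are shown because they hold the 7-letter core of the TCF/LEF motif, CTTTGAT or its reverse complement ATCAAAG, which is in capitals. Each window is 300 bases of GRCm38 around the summit of the stronger of the 2 acute peaks, printed on the plus strand.
Nkd1 at chr8:88512298-88512597, upstream of the gene: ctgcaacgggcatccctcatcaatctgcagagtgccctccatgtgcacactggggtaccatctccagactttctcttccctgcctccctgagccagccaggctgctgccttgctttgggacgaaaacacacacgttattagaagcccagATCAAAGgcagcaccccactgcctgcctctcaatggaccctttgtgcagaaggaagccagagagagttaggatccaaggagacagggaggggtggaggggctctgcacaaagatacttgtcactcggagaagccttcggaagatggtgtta
Znrf3 at chr11:5411727-5412026, in an intron: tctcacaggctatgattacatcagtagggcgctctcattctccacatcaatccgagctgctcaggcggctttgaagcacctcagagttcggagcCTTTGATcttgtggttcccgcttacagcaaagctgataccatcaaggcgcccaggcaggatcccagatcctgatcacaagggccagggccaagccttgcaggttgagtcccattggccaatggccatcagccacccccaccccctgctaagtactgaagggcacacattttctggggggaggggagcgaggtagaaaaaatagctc
Spock2 at chr10:60101697-60101996, upstream of the gene: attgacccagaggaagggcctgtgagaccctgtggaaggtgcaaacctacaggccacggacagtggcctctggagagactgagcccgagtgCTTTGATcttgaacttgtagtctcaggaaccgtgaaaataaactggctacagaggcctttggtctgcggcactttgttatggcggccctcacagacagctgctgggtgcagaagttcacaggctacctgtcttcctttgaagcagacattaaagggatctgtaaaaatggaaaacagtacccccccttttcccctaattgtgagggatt
The peaks at these windows are described after the transcripts.

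The depth of the RNA-seq libraries was 24284843 to 94686456 estimated counts, and no 2 libraries were alike within sampling noise. Levels are given as TPM, a unit that divides the reads of a transcript by its length and scales them to a fixed total per library. Nuclear protein-coding genes took 26.5 to 63.1% of the deposited TPM in 12 libraries and 94.3 and 94.1% in WT cultures 3 and 4, and the remainder fell on noncoding RNAs and mitochondrial genes. The deposited TPM of a typical gene therefore differed between libraries by −0.83 to 1.0 on the log2 scale, and levels below are given as coding TPM, the same values rescaled to one common total over nuclear protein-coding genes, on which this deviation was −0.28 to 0.23. The 10 EC markers summed to a coding TPM of 5885 to 6407 in acute ECs, 3845 to 11976 in WT and 5671 to 11011 in stabilized cultures, against 26.9 to 78.4 in GFP-negative cells. Markers of other cells were present in the acute sort: 7 pericyte markers summed to 1271 to 1659, against 6.24 to 26.6 in WT and 15.3 to 33.9 in stabilized cultures, and 6 astrocyte markers to 217 to 1449, against 9.52 to 48.6 and 27.3 to 40.7. In GFP-negative cells the pericyte markers summed to 1440 to 2059 and the astrocyte markers to 5472 to 9977. The 3 erythrocyte markers summed to 14739 to 77792 in acute ECs and to at most 1.56 in WT cultures, while 4 smooth muscle markers summed to 530 to 724 in acute ECs and 1097 to 7599 in WT cultures. These sums cover markers of both directions. In WT cultures against acute ECs, 3 smooth muscle markers were higher and 1 lower at an adjusted p under 0.05 in edgeR. Of the 10 EC markers 1 was higher and 3 lower, beside 23.9% and 21.3% of all genes tested. Of all counts, those of mitochondrial genes were 11.2 and 10.6% in acute ECs, 0.67 to 1.58% in WT cultures and 1.62 to 2.58% in stabilized cultures. The part of these markers and shares in the results was not tested. In bulk libraries, fewer cells of a type and less RNA per cell cannot be told apart.

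The targeted gene was Ctnnb1, which codes for beta-catenin. Its coding TPM was 2733 and 2349 in acute ECs, 1695 and 1634 in the WT cultures of method A, 424 and 380 in those of method B read with 150 cycles, 573 and 632 in those of method B read with 36, and 1267, 1280, 780 and 829 in the stabilized cultures. The stabilized wells lay below the WT wells in method A and above them in method B, and over all 10 cultures the difference was 0.07 on the log2 scale (SE 0.28, with an adjusted p of 0.936 by Benjamini-Hochberg after the quasi-likelihood test of edgeR). The difference between the methods passed the test in the 36-cycle cultures (0.68, SE 0.09, adjusted p 0.000506 from edgeR). Sums over transcripts do not show whether exon 3 was removed, so the labels of the stabilized cultures were not checked by this gene.

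In acutely isolated ECs the levels of the 8 genes spanned a wide range. Spock2, which codes for an extracellular matrix proteoglycan, was the highest at a coding TPM of 1476 ± 157 (SD, n = 2 here and for every acute value), followed by Apcdd1, a membrane inhibitor of Wnt signaling, at 1159 ± 201. Axin2, the inducible scaffold of the beta-catenin destruction complex, stood at 138 ± 31.6, Notum, a secreted enzyme that removes the lipid from Wnt ligands, at 128 ± 64.1, and Nkd1, which binds Dishevelled, at 124 ± 22.9, and the ranges of these 3 genes overlapped. Tnfrsf19, a receptor of the TNF receptor family, stood at 83.4 ± 4.68 and Znrf3, a ubiquitin ligase that removes Frizzled receptors from the cell surface, at 13.1 ± 6.89. Rnf43, the paralog of Znrf3 with the same function, had 0 counts in both libraries, which allows at most 0.0249 CPM, a limit of counting error alone.

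Of the 8 genes, 5 were called higher in acute ECs than in GFP-negative cells, which asks whether their transcripts are endothelial. Calling a gene required an adjusted p under 0.05 in edgeR, and that the fold change was over 2 and the deposited TPM was at least 5 in every library of the higher group, and 8.3% of the 15102 genes tested were called higher. Apcdd1 was at a coding TPM of 35.8 and 53.6 in GFP-negative cells against 1301 and 1017 in ECs, and its log2 fold change was 4.73 with an SE of 0.38 (adjusted p 0.0017 from edgeR). Spock2 was at 111 and 89.3 against 1365 and 1587 (4.40, SE 0.38), and Notum at 0.832 and 13.5 against 83.0 and 174 (5.64, SE 0.84). Axin2 was higher by 2.50 (SE 0.42), from 24.8 and 67.4 to 161 and 116, and Tnfrsf19 by 2.06 (SE 0.46), from 49.1 and 27.3 to 80.1 and 86.7.

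The other 3 genes were not called higher in ECs. Nkd1 did not pass the test (1.26, SE 0.41, adjusted p 0.0622 from edgeR), with a coding TPM of 58.4 and 107 in GFP-negative cells and 108 and 140 in ECs. Znrf3 was at 18.3 and 17.3 in GFP-negative cells and 8.24 and 17.98 in ECs (−0.49, adjusted p 0.364 from edgeR). Rnf43 passed the test as lower in ECs (adjusted p 0.0106 from edgeR), beside 19.7% of all genes, with 410 counts over both GFP-negative libraries and 0 in ECs, at least 171-fold lower with 3 counts taken as the upper limit over the group. Without GFP-negative library 2 its adjusted p was 0.0715 in edgeR. With an offset for transcript length, only Apcdd1 and Spock2 remained called, and Axin2 was at 2.06 with an adjusted p of 0.0771 from edgeR. Without acute library 1, or without GFP-negative library 2, 4 of the 8 were called.

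**Figure D1:**
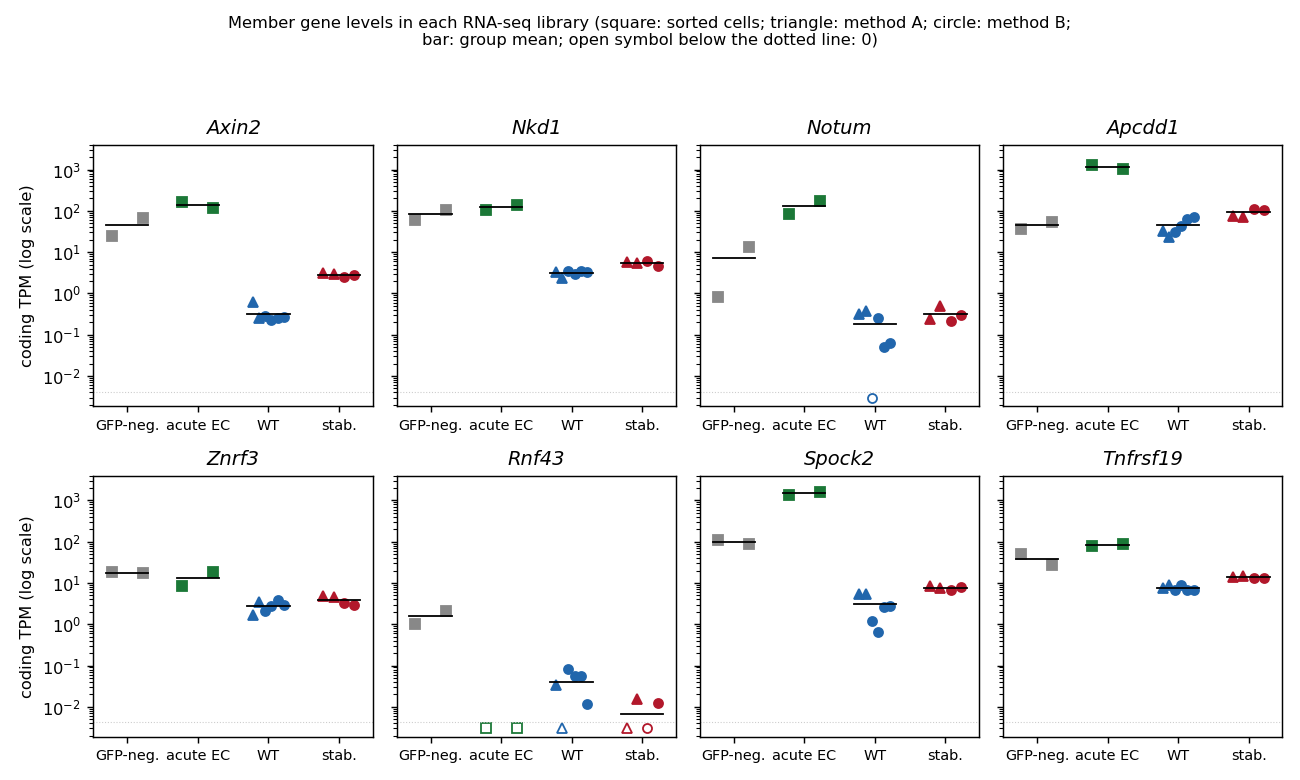
Coding TPM (log scale) of each of the 8 genes in each of the 14 RNA-seq libraries, with squares for sorted cells, triangles for method A, circles for method B, bars for group means and open symbols below the dotted line for a value of 0. Except for Rnf43, which was at 0 in acute ECs, each gene lay lower in all 10 cultures than in both acute libraries, and the WT and stabilized cultures are most clearly apart for Axin2, at 0.224 to 0.607 against 2.48 to 3.10.

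In WT cultures the 7 genes that could be tested all fell from their level in acute ECs, with log2 fold changes of −9.62 to −2.56 (edgeR, adjusted p under 0.05, 6 WT against 2 acute libraries). Of these, 6 were called lower, beside 10.2% of the 13784 genes tested, and the median over the 7 was −6.04, beside 0.10 over all genes tested. Znrf3 passed the test but was not called, because its deposited TPM in acute library 1 was 2.66. At an adjusted p under 0.05 alone, 21.3% of all genes were lower. The coding TPM of the same 7 genes was lower in every WT culture than in either acute library, as was that of 25% of all genes tested. With DESeq2 and under each other scaling, filter or selection of libraries tried, the 7 genes kept an adjusted p under 0.05, and without acute library 1 all 7 were called. Wells of an experiment entered the main fit as separate replicates, so its SE and p-values can understate the spread between experiments. With the wells of each experiment summed, the same 6 genes were called in edgeR.

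The inhibitors that act inside the cell, Axin2 and Nkd1, were both called lower. The coding TPM of Axin2 was 161 and 116 in acute ECs and 0.224, 0.263 and 0.607 as the lowest, median and highest of the 6 WT cultures. The 6 WT libraries held 3 to 43 counts of it, so that the level in culture rests on few reads. The log2 fold change was −8.29 (SE 0.70, adjusted p 9.66e-05 from edgeR), and the WT mean was 0.228% of the acute mean. Nkd1 was at 2.31, 3.30 and 3.57 in WT cultures against 108 and 140 in acute ECs, a change of −6.04 (SE 0.36). The WT cultures spread over less than a 2-fold range in Nkd1, and the mean was 2.54% of the acute mean.

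The inhibitors outside the cell or in its membrane fell by different amounts. Notum, called lower at −8.98 (SE 0.83), had a coding TPM of 0, 0.159 and 0.372 as lowest, median and highest WT value, from 0 to 11 counts a library, against 83.0 and 174 in acute ECs. Apcdd1 was the highest of the 8 genes in culture, at 23.1, 37.9 and 70.6, and yet fell by 4.06 (SE 0.49). Its 6 WT values did not come near the acute values of 1301 and 1017, of which the WT mean was 3.82%. Znrf3 had the smallest change, −2.56 (SE 0.34, adjusted p 0.000622 from edgeR), with 1.68, 2.81 and 3.90 in WT cultures. Rnf43 had 14 counts over the 6 WT cultures, 0 to 5 a library, and 0 in acute ECs. With 3 counts taken as the upper limit over the acute group, the ratio was 2.76, which leaves out the counting error of the 14. Rnf43 was too low to be tested.

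Of the 2 target genes that are not inhibitors, Spock2 was called lower, at −9.62 (SE 0.84, with an adjusted p of 0.000113 from edgeR), within error of that of Notum, whose WT mean was 0.138% of the acute mean. From the highest level in acute ECs it came to a coding TPM of 0.661, 2.73 and 5.47, and the WT mean was 0.205% of the acute mean. The WT cultures differed by experiment, at 5.47 and 5.40 in wells 1 and 2, 1.18 and 0.661 in wells 3 and 4, and 2.63 and 2.83 in wells 5 and 6. Tnfrsf19 fell by 4.58 (SE 0.23), to 6.59, 7.12 and 8.86, with a spread between cultures that was narrow beside this change. In WT cultures the order of the genes was thus another than in acute ECs, with Apcdd1 and Tnfrsf19 first, then Nkd1, Spock2 and Znrf3 in overlapping ranges, then Axin2, Notum and Rnf43, whose ranges also overlapped from one to the next.

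**Figure D2:**
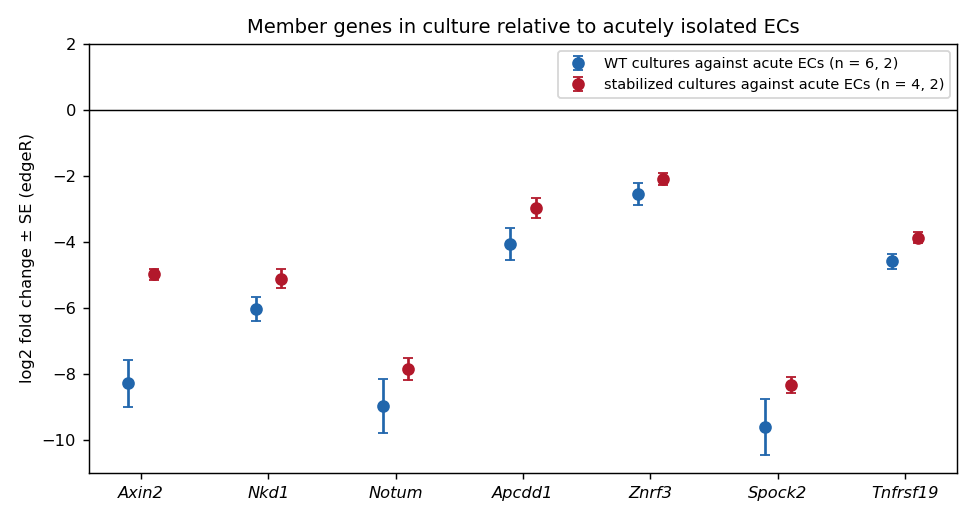
Log2 fold change with its standard error (edgeR) of 7 of the 8 genes in WT cultures (blue, 6 libraries) and stabilized cultures (red, 4 libraries), each against the same 2 libraries of acute ECs, whose spread both sets therefore share. All values lie below 0, from −9.62 for Spock2 in WT cultures to −2.09 for Znrf3 in stabilized cultures, and Rnf43 is left out because it was too low to test.

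Between stabilized and WT cultures Axin2 had the largest log2 fold change of the 7 tested genes, although no gene passed the test over all 10 cultures. Axin2 was at a coding TPM of 3.10, 2.93, 2.48 and 2.77 in the 4 stabilized cultures, all above the highest of the 6 WT cultures, 0.607, and 2.04% of the acute mean. The log2 fold change was 3.31 (SE 0.55) with a p of 1e-04, the rank 6 of 12958 genes, and an adjusted p of 0.181 (edgeR, Benjamini-Hochberg). Over all genes 0% were called in either direction, under the call rule as at an adjusted p under 0.05 alone, while 1344 genes (10.4%) and 5 of the 8 had an unadjusted p under 0.05, and DESeq2 called 18 genes. Axin2 passed with DESeq2 (adjusted p 7.72e-07), with an offset for transcript length in edgeR (adjusted p 0.0109) and in the 36-cycle cultures alone (2.81, adjusted p 0.00658). It did not pass with isolation method as a covariate (3.24, adjusted p 0.0509 from edgeR) or with the wells of each experiment summed (3.32, adjusted p of 1 from edgeR, 2 against 3 sums). Of the 8 genes, Apcdd1 alone had a deposited TPM of at least 5 in all 4 stabilized cultures or in all 6 WT cultures, so that the other 7 could not be called by the full rule over all cultures.

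The differences of the other genes were smaller. On the coding TPM scale 5 of the 8 genes were higher in every stabilized than in every WT culture, beside 2.71% of all genes tested, namely Axin2, Nkd1, Apcdd1, Spock2 and Tnfrsf19. On the deposited TPM this held for 2 of them, Axin2 and Spock2, beside 0.44%, and on coding TPM centred on each library's median gene for 4, without Apcdd1, beside 2.23%. Tnfrsf19 was at 14.3, 14.8, 12.9 and 13.1 in stabilized cultures against at most 8.86 in WT (0.70, SE 0.14, adjusted p 0.234 from edgeR). Nkd1 was at 5.88, 5.45, 6.05 and 4.57 against at most 3.57 (0.92, SE 0.24, adjusted p 0.374), and Spock2 at 8.54, 7.47, 6.66 and 7.81 against at most 5.47 (1.29, SE 0.54, adjusted p 0.461), both from edgeR. Apcdd1 was at 77.1, 72.9, 113 and 106 against at most 70.6 (1.09, SE 0.39, adjusted p 0.43 from edgeR), with the 2 lowest stabilized values, both of method A, just above the highest WT value, of method B.

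Notum, Znrf3 and Rnf43 overlapped between the groups. Notum was at 0.241, 0.494, 0.217 and 0.306 in stabilized cultures, within the WT range of 0 to 0.372 except for well 2 (1.10, SE 0.74, adjusted p 0.611 from edgeR). Znrf3 was at 4.81, 4.62, 3.32 and 2.91, of which the method B wells lay within the WT range of 1.68 to 3.90 (0.46, SE 0.24, adjusted p 0.523 from edgeR). Rnf43 had 2 counts over the 4 stabilized cultures. The median log2 fold change over the 7 tested genes was 1.09, beside −0.04 over all genes tested.

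Within each isolation method, 6 of the 7 genes rose with stabilization at an adjusted p under 0.05 in edgeR. This rule was applied after the pooled values were seen, each method has 2 wells of 1 experiment per genotype, and p-values then measure the spread between wells only. In method A the background was 29.2% of 12848 genes, and Axin2 was higher by 2.95 (SE 0.22, adjusted p 0.000535 from edgeR), Apcdd1 by 1.36 (SE 0.16), Nkd1 by 1.25 (SE 0.16), Znrf3 by 0.89 (SE 0.17), Tnfrsf19 by 0.48 (SE 0.09) and Spock2 by 0.34 (SE 0.11). Notum was at 0.12 (SE 0.50). In the 36-cycle libraries of method B the background was 19.5% of 12835 genes, and Axin2 was higher by 2.67 (SE 0.16, adjusted p 0.00066 from edgeR), Notum by 2.42 (SE 0.55), Spock2 by 1.39 (SE 0.11), Tnfrsf19 by 0.96 (SE 0.07), Apcdd1 by 0.66 (SE 0.07) and Nkd1 by 0.59 (SE 0.15). Znrf3 was at −0.11 (SE 0.15). By the full call rule 1 of the 8, Apcdd1, was called in method A, beside 5.39% of genes, and none in method B, beside 1.08%. In means of coding TPM, Axin2 was 7.01 times as high in stabilized as in WT cultures of method A and 10.1 times in method B at 36 cycles.

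The replicate numbers of stabilized and WT cultures paired the libraries by isolation method, and with a block for the 4 numbers Apcdd1 was called (1.68, adjusted p 0.0404 from edgeR) and Axin2 passed the test (3.99, adjusted p 0.0457 from edgeR), in a fit that calls 190 genes. Without the block over the same 8 libraries 213 genes and again Apcdd1 were called.

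**Figure D3:**
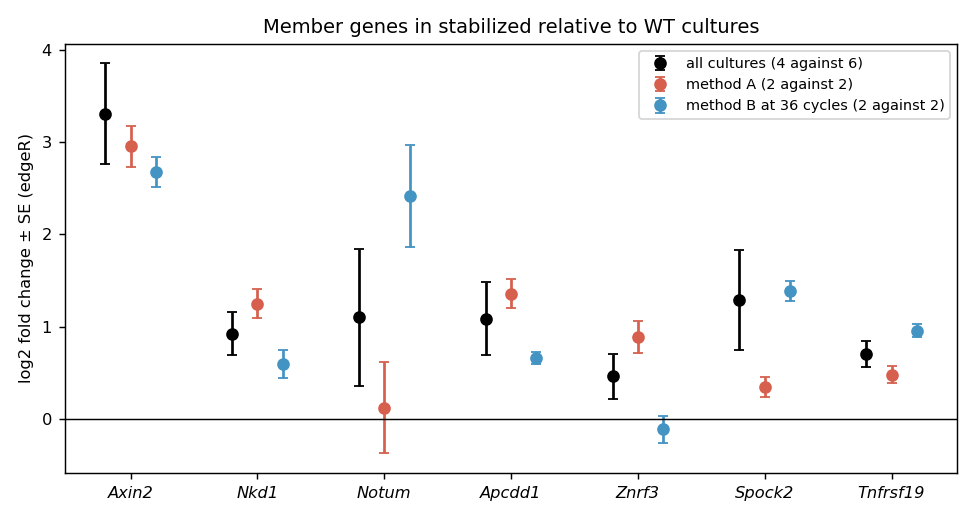
Log2 fold change with its standard error (edgeR) of 7 genes in stabilized against WT cultures, over all cultures (black), in method A (red) and in method B at 36 cycles (blue). Axin2 lies between 2.67 and 3.31 in all 3 fits, Notum is near 0 in method A and at 2.42 in method B, and Znrf3 is at 0.89 and −0.11.

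Whether the difference between stabilized and WT cultures changed with the isolation method was tested as an interaction over the 8 cultures of 36 cycles. Each of the 4 combinations has 2 wells of 1 experiment, so the p-values measure the spread between wells, and method cannot be told apart from experiment and from the strain of the controls. Of the 7 genes, 6 passed at an adjusted p under 0.05 in edgeR, beside 25.1% of 13356 genes in the higher and 24.5% in the lower direction. The difference was larger in method B for Notum (interaction term 2.31, SE 0.79, adjusted p 0.0375), Spock2 (1.06, SE 0.17, adjusted p 0.00126) and Tnfrsf19 (0.50, SE 0.11, adjusted p 0.00594), and larger in method A for Znrf3 (−0.97, SE 0.24, adjusted p 0.00992), Apcdd1 (−0.68, SE 0.20, adjusted p 0.0191) and Nkd1 (−0.64, SE 0.22, adjusted p 0.0405), all from edgeR. For Axin2 the interaction term was −0.26 (SE 0.28, adjusted p 0.46 from edgeR). Notum rests on 2 and 3 counts in the WT wells of method B. With DESeq2, Nkd1 (adjusted p 0.0902) and Notum (adjusted p 0.166) did not pass. With an offset for transcript length only Spock2 remained past the threshold (0.95, adjusted p 0.00423 from edgeR), and without WT replicate 6, stabilized replicate 1 or stabilized replicate 4 the number was 3.

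Between WT cultures of method B and method A, 0 of the 8 genes were called, beside 4.92% of 13050 genes higher and 2.61% lower in method B, and Apcdd1 alone reached the TPM of 5 in every library of either group that a call requires. Of the 6 that were tested, 0 had an adjusted p under 0.05 in edgeR, beside 9.45% of genes higher and 7.04% lower, and 0 had an unadjusted p under 0.05. With every cultured library in one fit all 6 passed (adjusted p from 2.96e-07 for Spock2 to 0.0449 for Tnfrsf19 in edgeR), with the 36-cycle libraries of method B 5, all but Axin2, and with its 150-cycle libraries 2, Axin2 (−2.62) and Spock2 (−2.86). Those fits take their error from pairs of wells of the same experiment, so their p-values measure the spread between wells only. Method goes together with genotype and experiment here. Spock2 was at −1.57 (SE 0.68, adjusted p 0.173 from edgeR) and did not overlap between methods, at 5.47 and 5.40 in method A and 0.661 to 2.83 in method B. Axin2 was at 0.607 and 0.254 in method A and 0.224 to 0.286 in method B. Its counts were 16 and 20 in method A. In method B they were 3 and 5 at 150 cycles and 24 and 43 at 36. Apcdd1 was called higher in method B when only its 36-cycle libraries were used (1.45, adjusted p 0.00011 from edgeR), at 65.1 and 70.6 against 33.4 and 23.1, while in the 150-cycle libraries of method B it was at 30.9 and 42.4.

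In stabilized cultures the genes lay below their level in acute ECs. All 7 tested genes were lower at an adjusted p under 0.05 in edgeR, beside 27.8% of 13888 genes, and 6 were called, beside 11%. Here too, wells of an experiment entered as separate replicates, so the SE and p-values can understate the spread between experiments. With the wells of each experiment summed, the same 6 genes were called in edgeR. The log2 fold change was −8.33 (SE 0.25) for Spock2, −7.85 (SE 0.35) for Notum, −5.11 (SE 0.30) for Nkd1, −4.98 (SE 0.17, adjusted p 3.03e-05 from edgeR) for Axin2, −3.88 (SE 0.17) for Tnfrsf19, −2.97 (SE 0.30) for Apcdd1 and −2.09 (SE 0.19) for Znrf3, which was not called. The mean of the stabilized cultures was 16.5% of the acute mean for Tnfrsf19, 7.95% for Apcdd1, 4.43% for Nkd1, 0.516% for Spock2 and 0.245% for Notum. For Znrf3 the means were 3.92 and 13.1. These shares, like those of WT cultures, use TPM, which divides by length, and the fold changes use counts, so their sizes differ. Over the settings tried the log2 fold change was −4.0 to −2.75 for Tnfrsf19 and −3.79 to −2.67 for Apcdd1. The comparisons of stabilized and of WT cultures share the 2 acute libraries.

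The other genes of the pathway, 105 in lists of ligands, receptors, inhibitors, destruction complex, TCF/LEF factors with coactivators and further targets, were compared in the same fits. In WT cultures 13 of 76 tested passed as higher and 21 as lower in edgeR, beside 23.9% and 21.3% of all genes, and 6 and 11 were called, beside 13.5% and 10.2%, with a median log2 fold change of −0.36. Of the 16 tested TCF/LEF factors and coactivators, 1 was higher and 8 lower, Lef1 at −4.63 (SE 0.61) and Tcf7 at −5.99 (SE 0.62). Ctnnb1 was at −1.20 (SE 0.42, adjusted p 0.0425 from edgeR). The ligand Wnt5b was called lower at −4.33 (SE 0.72), and of 15 tested genes of the destruction complex 5 were lower and 1 higher.

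Of 11 further targets tested, 4 were higher and 2 lower in WT cultures, beside 23.9% and 21.3% of all genes. Sp5, a transcription factor induced by Wnt in other tissues, rose by 5.91 (SE 0.72), from a coding TPM of 0.241 and 0.196 in acute ECs to 17.9, 33.6 and 45.1 as lowest, median and highest WT culture. The adhesion receptor Cd44 rose by 5.78 (SE 1.03) and Frzb, a secreted Wnt antagonist, by 9.70 (SE 1.56), with a coding TPM of 73.9 to 265 in WT cultures against 1.23 and 0 in acute ECs. In stabilized against WT cultures 0 of 74 tested genes passed the test in edgeR. Over all cultures Lef1 was at 0.03 (SE 0.48) and Tcf7 at 0.82 (SE 0.47), but the methods differed. The coding TPM of Lef1 was 13.0 and 16.2 in stabilized against 4.57 and 5.45 in WT cultures of method A. In method B it was lower, at 15.6 and 13.1 against 16.8 to 21.5. Tcf7 was at 5.28 and 5.11 against 0.729 and 1.05 in method A. In method B Tcf7 overlapped, at 2.46 and 3.26 against 1.43 to 3.77. Its interaction term was −1.65 (SE 0.33, adjusted p 0.00362 from edgeR), and the reason was not tested. Sp5 was at 20.8, 20.2, 42.2 and 34.6 in stabilized cultures, within the range of the WT cultures.

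Of 79 pathway genes tested in stabilized cultures against acute ECs, 15 were higher and 29 lower in edgeR, beside 28.9% and 27.8% of all genes, and Lef1 (−4.59, SE 0.20), Tcf7 (−5.16, SE 0.39), Wnt5b (−4.15, SE 0.72), Sp5 (6.07, SE 0.58), Bmp4 (5.66, SE 0.80) and Frzb (9.90, SE 1.19) led the called ones. Of 90 tested in acute ECs against GFP-negative cells, 15 were higher and 26 lower, beside 9.93% and 19.7%. Sox17, an endothelial transcription factor, was at 8.78 (SE 0.55), the receptor Fzd6 at 5.08 (SE 0.47), Lef1 at 5.63 (SE 0.62), Tcf7 at 4.01 (SE 0.60) and Ctnnb1 at 3.20 (SE 0.38), while the secreted inhibitor Dkk3 was at −5.60 (SE 0.55) and Apc2 at −4.80 (SE 0.57). Wif1, a secreted Wnt inhibitor, was also called lower in ECs. In the interaction 10 of 75 passed as higher and 26 as lower in method B, beside the 25.1% and 24.5% given above, Myc at −2.06 (SE 0.15) and Lef1 at −1.95 (SE 0.22) among them, and Wnt5a (2.85, SE 0.65), Cd44 (2.21, SE 0.25) and Lef1 (2.15, SE 0.25) were called higher in WT cultures of method B than of method A, with Bmp4 (−1.06, SE 0.19) lower.

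The chromatin of the 8 genes was compared by the presence of a peak in each library's own list. The lists differed in length, with 37384 and 31779 peaks in acute ECs and 50395 and 33122 in WT cultures 1 and 2. WT cultures 3 to 6 had 84523 to 98732 peaks and the stabilized cultures 80034 and 79116. A missing peak can therefore also reflect a short list, and the part of list length was not tested. Within the gene bodies and 10 kb to each side lay 102 of 126224 merged regions, of which 11 (10.8%) were open in both acute EC libraries and in no WT culture, beside 2.93% of all regions. Of these, 4 were at Nkd1, 3 at Znrf3, 2 at Spock2 and 2 at Tnfrsf19, and none at Axin2, Notum, Apcdd1 or Rnf43. None of the 11 had a peak in either stabilized culture. Of all 3703 such regions only 115 had one in at least 1 of the 2, so this does not set the 11 apart. At least 1 such region was near 4 of the 8 genes, beside 8.38% of all 21951 genes and 20.6% of the 3622 genes of at least 70 kb, a length that Nkd1, Znrf3, Rnf43 and Tnfrsf19 exceed. There are no counts per region, so no test of a region was made.

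The strongest of the 11 regions lay in an intron of Znrf3, at chr11:5317942-5318616, with a fold enrichment over the local background of 16.0 and 10.6 in the acute libraries and no peak in any of the 8 cultures. Another in Znrf3, at chr11:5411530-5412103, which holds the window printed above, was at 11.5 and 10.4. The strongest at Spock2, at chr10:60101616-60102675 with its midpoint at −4074 bases from the gene start, was at 8.97 and 7.25, and it too holds its printed window. At Nkd1 the strongest was in an intron at chr8:88580484-88581136, with 5.87 and 5.54, and that of the printed window, at chr8:88512293-88512650, was at 4.89 and 4.20. At Tnfrsf19 an intronic region at chr14:60994977-60995435 was at 5.06 and 4.59.

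Starts of transcription had peaks in culture as well. Of 35 annotated starts of the 8 genes, 16 (45.7%) had a peak within 1 kb in both acute libraries and in all 6 WT cultures, beside 41.7% of 93472 starts of protein-coding genes, and 0 were open in acute ECs alone, beside 0.261%. The first start of Axin2, Nkd1, Notum, Apcdd1, Znrf3 and Tnfrsf19 had a peak in all 10 libraries. At the first start of Axin2 the fold enrichment was 11.1 and 10.8 in acute ECs, 7.09 to 14.9 in WT cultures and 12.6 and 12.4 in stabilized cultures. Spock2 had a peak at its start in both acute, 5 of 6 WT and both stabilized libraries, and Rnf43 in 2, 4 and 2. The WT cultures without it were replicate 2 for Spock2 and replicates 1 and 2 for Rnf43, which have the shortest WT peak lists.

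Some regions of Axin2 were open in both acute libraries and in part of the cultures. One, at chr11:108910370-108911338 upstream of the gene, had a fold enrichment of 5.24 and 7.03 in acute ECs, a peak in 1 of 6 WT cultures and none in the stabilized ones. An intronic one at chr11:108933801-108934265 was at 6.08 and 7.22, with peaks in 1 WT and 1 stabilized culture, and another at chr11:108936128-108936848 at 10.1 and 6.95, with peaks in 4 WT and 1 stabilized culture. Downstream of the gene, at chr11:108952182-108952670, 5 of 6 WT and both stabilized cultures had a peak and neither acute library did.

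**Figure D4:**
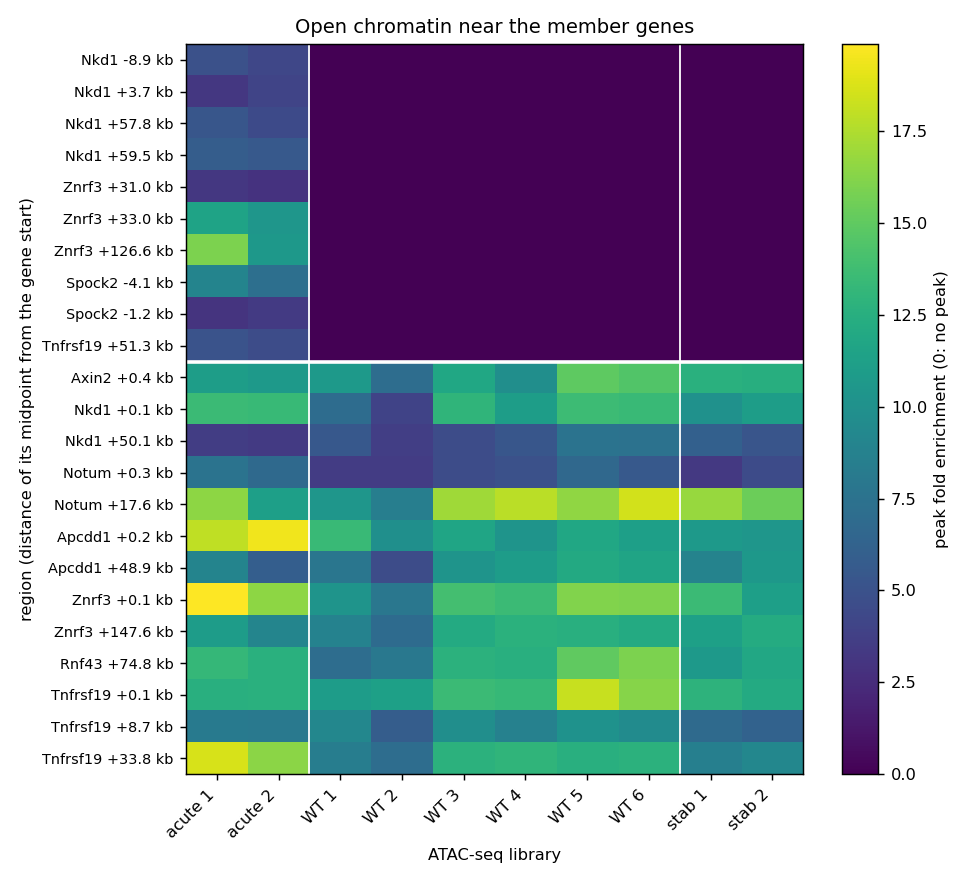
Fold enrichment of the ATAC-seq peak in each library (colour, 0 for no peak) at 10 of the 11 regions open in acute ECs and in no WT culture (above the white line) and the 13 regions open in both acute libraries and all WT cultures (below it), labelled by gene and by the distance of the region's midpoint from the gene start in kb. The upper regions are at 2.94 to 16.0 in the acute libraries and have no peak in any WT or stabilized culture.

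The motif CTTTGAT was searched on both strands in 300-base windows at the summits. It was in 4 of the 11 member regions open in acute ECs and in no WT culture, 3 of them printed above, and in 4 of the 13 shared ones, beside 15.1% of 3671 windows of all regions open in acute ECs and in no WT culture, 2.9% of 16919 windows of shared regions and 6.1% of 38578 windows with an acute peak. Of 7 RefSeq promoter windows of Axin2, Nkd1, Rnf43, Spock2 and Tnfrsf19 (GRCm38.p6, 300 bases across the start; none was matched for Notum, Apcdd1 and Znrf3), 1, at Tnfrsf19, held it, beside 3.7% of 32851 windows of all genes. A match is a description of the letters and shows no binding.

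The transcripts of a gene were not used in equal shares. For Axin2 the full-length Axin2-201, of 4260 bases, took 9.4% of the gene's TPM in acute ECs, 40.0% in WT and 66.0% in stabilized cultures, and the short Axin2-204, of 826 bases, 33.4%, 0.0% and 17.2%. In GFP-negative cells Axin2-201 took 10.2% and Axin2-204 69.6%. For Apcdd1 a transcript annotated as subject to nonsense-mediated decay, Apcdd1-205, took 58.3% in acute ECs, 51.1% in GFP-negative cells and 0.0% in the cultures. Spock2-201 took 92.1% in acute ECs and 93.2% in WT cultures. Assignment of reads to transcripts differs with read length and depth, and the share in WT cultures of Axin2 rests on the few counts given above.

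The genes whose deposited TPM was most alike to that of Axin2 over the 14 libraries were Arap2, Snx29, Serpina1b, Emsy and Egflam, with Pearson r of 0.971 to 0.975 on log2(TPM + 1). On coding TPM the 5 most alike were others, Maob, Pcp4l1, Ctcf, Abcf1 and Bbx, so that the list depended on the scale. To the mean profile of the 8 genes, Cnot6l was most alike on both scales (r 0.990 and 0.992), and Egflam, Pcp4l1 and Pnn were among the first 5 on both. Among the members, r with Axin2 on coding TPM over the 10 cultures was 0.94 for Tnfrsf19, 0.91 for Nkd1, 0.78 for Spock2, 0.72 for Apcdd1, 0.52 for Znrf3 and 0.51 for Notum, and −0.59 for Rnf43. On deposited TPM it was, in the same order, 0.672, 0.656, 0.867, 0.656, 0.464, 0.479 and −0.376, so that Spock2 came first there. These correlations are descriptions over libraries that share groups, wells and depth.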

How the data were processed

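Transcript abundance was estimated by the authors with Salmon (version 0.14.0, GENCODE release M21), and the deposited RNA-seq files hold an estimated count, which is not normalized, and a TPM value for each of 140198 transcripts. ATAC-seq reads were mapped by the authors to GRCm38 (HISAT2, version 2.1.0) and peaks came from MACS2 (version 2.1.2), 1 list per library. These deposited lists hold a score, a fold enrichment, a −log10 p-value and a −log10 q-value.

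Counts and TPM were summed per gene over transcripts, and counts were rounded. Protein-coding genes were tested in R 4.3.3 with edgeR 4.0.16 (filterByExpr, TMM, glmQLFit, glmQLFTest), each comparison on its own libraries, with Benjamini-Hochberg adjustment over all genes tested. Calls required an adjusted p under 0.05, a fold change over 2 and a deposited TPM of at least 5 in every library of the higher group. DESeq2 1.42.0, other scalings, filters, an offset for transcript length and the removal of single libraries were alternatives. Fits on simulated counts with known changes were checked first. Peaks with a fold enrichment over 2 and a −log10 q over 2 were merged over libraries at 1 bp of overlap. Depth of 24284843 to 94686456 counts per library limits the precision of the lowest genes; a count of 0 allows up to 3 counts.

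Named were the 8 members, Ctnnb1, Lef1 and Tcf7, up to 3 called pathway genes per direction with the largest fold changes, the 5 genes most alike in pattern, transcripts with at least 10% of a gene's TPM and the strongest acute-only peaks. The members and lists were chosen with earlier results of these data known. Coding TPM was added after the data were seen. Replicate numbers 1 to 4 of stabilized and WT cultures deviated together (correlations 0.226, 0.273, 0.235 and 0.259), which follows the isolation method, since within a method the values were 0.041 and 0.011. The main fits did not pair the numbers, and a block for them was an alternative fit. That block set stabilized wells 3 and 4, read with 36 cycles, beside WT wells 3 and 4, read with 150. No source names a shared animal. The sequence, position and peak values of 1 acute-only region are not reported here.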

Additional observations from a re-analysis of the deposited data

Results flagged for a closer look

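In WT cultures, the coding TPM of Axin2 in replicate 1 (0.607) stood apart from the other 5 cultures, which lay between 0.224 and 0.286. At the Tnfrsf19 region whose midpoint is 8679 bases into the gene, the peak fold enrichment of WT ATAC-seq replicate 2 (5.88) stood apart from the other 5 WT cultures. Chance marks about 1 in 20 such sets, and 45 sets were examined, of which these 2 were marked.

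The difference between stabilized and WT cultures changed with the isolation method for 6 genes by the interaction test in edgeR. Each combination has 2 wells of 1 experiment and the method A controls are another strain, so that method, experiment and strain cannot be told apart. The log2 difference, method B minus method A, was −0.64 for Nkd1, 2.31 for Notum, −0.68 for Apcdd1, −0.97 for Znrf3, 1.06 for Spock2 and 0.50 for Tnfrsf19. Of all genes tested, 25.1% passed in the higher and 24.5% in the lower direction, and the reason for the differences was not tested.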

How the results depend on the processing

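Members stayed at 6 called in WT cultures against acute ECs under every change of scaling and low-count filter tried, and the settings that moved a count follow. Only Apcdd1 could pass the TPM minimum in stabilized against WT cultures, so the 0 called there says nothing about stability. The cause was not tested unless a setting tests fewer libraries or drops a rule. At an adjusted p alone, genes called were 6229 (WT against acute, 3275 by the full rule), 4480 (acute against GFP-negative, 2396), 7873 (stabilized against acute, 3618) and 2152 (WT method B against A, 982). With wells summed, WT against acute gave 2091. With the length offset, acute against GFP-negative gave 1554 genes and 2 members, and the interaction 1 member of 6, with Axin2 reversed at 0.40. In stabilized against WT cultures (0 genes and 0 members), DESeq2 called 18 genes, method as a covariate 6, the 36-cycle cultures with method as a covariate 76, method A 810 genes and 1 member, or 7198 and 6 at an adjusted p alone, and method B at 36 cycles 174 genes, or 4757 genes and 6 members at an adjusted p alone. There Znrf3 was reversed at −0.11. The replicate block over 4 numbers gave 190 genes and 1 member, and the same libraries without it 213 and 1. The replicate block over 2 numbers changed no member's call in the comparisons with acute ECs. In WT method B against A, every cultured library in one fit gave 1931 genes, method B at 36 cycles 1888 and 1 member, with Axin2 reversed at 0.003, and method B at 150 cycles 3206. Peaks that had to cover at least 0.5 of a merged region gave 17 acute-only and 3 shared regions, and 50 kb to each side 18 and 23.

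Leaving out 1 library gave 0 to 890 genes in WT method B against A, with 0 without replicate 1 or 2, 3 to 5 members in the interaction, and 11 to 18 acute-only regions, the last without acute replicate 2. Library size alone moved the split of calls to 2149 higher and 1193 lower in WT against acute, from 1866 and 1409, to 930 and 1419 in acute against GFP-negative, from 1254 and 1142, to 2274 and 1342 in stabilized against acute, from 2091 and 1527, to 4132 and 2756 in the interaction, from 3346 and 3278, and to 457 and 451 in WT method B against A, from 642 and 340. It moved the median of all genes from 0.10 to 0.30 in WT against acute and from −0.06 to −0.44 in acute against GFP-negative, against changes of 2.06 or more in the members called. The members' directions there were kept. Settings named after the data were seen were coding and median-centred TPM, the adjusted p alone within a method, the 36-cycle covariate fit and the fits without block. Low counts limit Axin2, Notum and Rnf43 in culture.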
